A study of Mus musculus with 4 samples.

Results

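Control-only acetylated regions at gene ends are stretches of chromatin that carried a called H3K27ac peak in the control-labelled list, none in the BN1-labelled list, and lay near the start or the far end of a protein-coding gene. They were found by merging the peaks of both lists wherever they overlapped, keeping the merged regions with no base from the BN1-labelled list, and asking which of these came within 1000 bp of either end of a RefSeq protein-coding gene. There were 2135 such regions, out of 34906 merged regions on the placed chromosomes and 16638 control-only regions in all. They made up 20.1% of the 10602 merged regions at gene ends, beside 7430 regions shared by both lists and 1037 BN1-only ones (9.78%). The members were chosen by the measured values themselves, presence of a peak in one list and absence from the other, so these counts describe the choice and are given without a test. The excess over BN1-only regions depended on the lengths of the lists: when the longer list was shortened by q-value to the length of the shorter one, 1294 control-only and 1438 BN1-only regions lay at gene ends, and among the 10000 strongest peaks per list 952 and 1579 did.

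The series studied leukaemia driven by BRD9-NUTM1, a fusion that joins BRD9, a bromodomain protein of the non-canonical BAF complex, to NUTM1, a testis-restricted partner of p300. Both groups were CD45.2+ bone marrow cells of C57BL/6 mice with no treatment; the control sample has the genotype cKit(+) and the BN1 sample cKit(+) BRD9-NUTM1. There was 1 ChIP library per group, made by fanChIP, a fractionation-assisted native chromatin immunoprecipitation, so replicate error is not known for any value and no p-value is given. The sources used here do not give the age of the animals, how the fusion was introduced, or whether cells of several animals were pooled.

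The labels and the peak names disagree about which library is which. Inside the list assigned to the control sample the peaks are named BRNU, and inside the list assigned to the BN1 sample they are named BM. The extraction protocol names cKit+ BN1 cells for all 4 samples, the inputs included. Groups follow the sample titles, the terms "control-labelled" and "BN1-labelled" refer to the 2 lists throughout, and every direction holds for the labels only. Neither list carried a region within 10 kb of Kit, the gene of the labelled surface marker. Ptprc, which encodes CD45, was acetylated at an end in both lists, over 6634 bp (control-labelled) and 2958 bp (BN1-labelled) within 10 kb.

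H3K27ac is placed on histone H3 by the acetyltransferases p300 and CBP at active promoters and enhancers, and is read by bromodomain proteins. At an active promoter it flanks the nucleosome-depleted start site and usually peaks just inside the transcribed gene. Many promoters of widely used genes lie in CpG islands, GC-rich stretches that keep their CpG dinucleotides, whereas many promoters of cell-type-restricted genes do not.

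The DNA under the acetylated starts differed widely in base composition, and 6 promoters that lay wholly inside a control-only region are shown for that reason, each with 1 short binding-site word in capitals. They are RefSeq sequences of GRCm38.p6, written 5′ to 3′ on the strand of the gene, from 250 bases before the start to 30 bases after it. Each word is shown in the gene of highest fold enrichment that held it on either strand, among the 10 strongest starts and the named starts of the gene lists, leaving out promoters that lay only partly inside their region and genes already shown for another word. Emp1, for example, also holds TGTGGT. In Src (chr2:157424043-157424322, plus strand; a tyrosine kinase of adhesion and osteoclast signalling) the capitals mark the ETS word GAGGAAG, read on the opposite strand. In Emp1 (chr6:135362681-135362960, plus strand; an epithelial membrane protein) they mark 2 AP-1 words, TGANTCA. In Trem2 (chr17:48346151-48346430, plus strand; a lipid-sensing receptor of macrophages) they mark the C/EBP word TTGCNNAA. In Igf2bp3 (chr6:49214925-49215204, minus strand; an RNA-binding protein) they mark the E-box word of MiT/TFE factors, TCACGTG, which overlaps its own copy on the other strand. In Gpnmb (chr6:49036268-49036547, plus strand; a glycoprotein of macrophages and pigment cells) they mark the RUNX word TGTGGT, read on the opposite strand. In Map4k3 (chr17:80727996-80728275, minus strand; a kinase of the germinal centre kinase family) they mark 5 copies of the SP/KLF word GGGCGG, of which 2 overlap.

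Src: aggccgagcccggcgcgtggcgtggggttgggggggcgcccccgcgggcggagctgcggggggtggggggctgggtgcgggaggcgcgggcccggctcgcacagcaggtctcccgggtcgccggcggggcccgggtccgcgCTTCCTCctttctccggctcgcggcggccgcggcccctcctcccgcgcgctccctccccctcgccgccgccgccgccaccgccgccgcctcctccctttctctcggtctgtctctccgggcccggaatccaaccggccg
Emp1: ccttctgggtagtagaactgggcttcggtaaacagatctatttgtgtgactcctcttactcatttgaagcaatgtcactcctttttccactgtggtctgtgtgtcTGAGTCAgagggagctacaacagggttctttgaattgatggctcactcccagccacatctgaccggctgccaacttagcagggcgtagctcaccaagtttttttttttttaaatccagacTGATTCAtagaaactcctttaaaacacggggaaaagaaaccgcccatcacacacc
Trem2: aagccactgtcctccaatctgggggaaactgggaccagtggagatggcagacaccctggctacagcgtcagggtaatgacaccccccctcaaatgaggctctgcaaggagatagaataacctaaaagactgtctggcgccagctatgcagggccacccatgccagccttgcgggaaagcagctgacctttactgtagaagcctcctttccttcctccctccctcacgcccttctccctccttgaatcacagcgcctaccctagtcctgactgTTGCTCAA
Igf2bp3: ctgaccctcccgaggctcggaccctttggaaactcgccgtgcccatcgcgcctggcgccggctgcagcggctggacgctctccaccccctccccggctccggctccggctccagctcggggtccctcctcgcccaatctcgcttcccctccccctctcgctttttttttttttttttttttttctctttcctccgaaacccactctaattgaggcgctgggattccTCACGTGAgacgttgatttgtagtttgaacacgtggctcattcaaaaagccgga
Gpnmb: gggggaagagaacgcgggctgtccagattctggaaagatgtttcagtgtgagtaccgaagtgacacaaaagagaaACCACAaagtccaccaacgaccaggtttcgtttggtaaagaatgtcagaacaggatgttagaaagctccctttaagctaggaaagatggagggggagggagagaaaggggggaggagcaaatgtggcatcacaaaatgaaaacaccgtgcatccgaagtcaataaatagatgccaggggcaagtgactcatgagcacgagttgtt
Map4k3: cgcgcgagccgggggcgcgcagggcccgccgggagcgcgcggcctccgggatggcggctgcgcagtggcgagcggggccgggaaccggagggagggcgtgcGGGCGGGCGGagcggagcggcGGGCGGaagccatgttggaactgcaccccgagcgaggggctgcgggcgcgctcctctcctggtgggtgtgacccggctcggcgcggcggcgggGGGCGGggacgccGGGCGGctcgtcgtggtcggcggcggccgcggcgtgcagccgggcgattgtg

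The contrast in composition is large among these 6. Over the 300 bases of the RefSeq entry, Map4k3 had a GC content of 82.7% and Src of 82.3%, with CpG at 1.14 and 0.93 times the frequency expected from the base content, and both counted as CpG-rich (GC of at least 50% and an observed over expected ratio of at least 0.6). Trem2, with a ratio of 0.22, and Emp1, with 0.31, counted as CpG-poor. Gpnmb had a ratio of 0.59, just under the limit.

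Most of the control-only regions were narrow and weak next to the shared ones. Each was a single peak of the control-labelled list. Their median width was 605 bp (quartiles 351.5 and 1136, range 209 to 8638), against 1554 bp for shared regions at gene ends. Their median fold enrichment over background at the summit, the authors' own value for each peak, was 5.60 (quartiles 4.25 and 8.12, range 2.07 to 38.3), and that of shared regions in the same list was 12.6. Fold enrichment reached 10 in 361 regions (16.9%) and 20 in 45 (2.11%). The weak majority and the strong tail are both part of the set, and 91.3% of the regions lay below the median of the shared ones. Low width and fold enrichment were not particular to this set. BN1-only regions at gene ends had a median width of 523 bp and, in their own list, a median fold enrichment of 5.11. Control-only regions elsewhere had 488 bp and 5.06.

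The depth behind a region could be read from its deposited values. Under the Poisson model of the peak caller, a fold enrichment and a p-value together fix the number of overlapping fragments at the summit, the pileup, and for 100% of the control-only regions at gene ends 1 whole number returned the deposited −log10 p within 0.1%. The median pileup was 18 fragments (quartiles 12 and 26, range 7 to 131). At its commonest background level the control-labelled list held no peak with a pileup below 7, and the BN1-labelled list none below 8. In 1350 regions (63.2%) the 95% Poisson interval of the pileup lay wholly above 8; this covers counting error only and says nothing of the total depth of either library, which is unknown. For the remaining regions the interval reached down to 8 or lower. The level of 8 belongs to the commonest background, that of 2186 of the 19140 BN1-labelled peaks, but was used for regions of any background. A region at Fcgr3, for example, passed it with a pileup of 33 at a fold enrichment of only 2.26. Passing it therefore does not place a region clear of the calling limit at its own background.

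**Figure D1:**
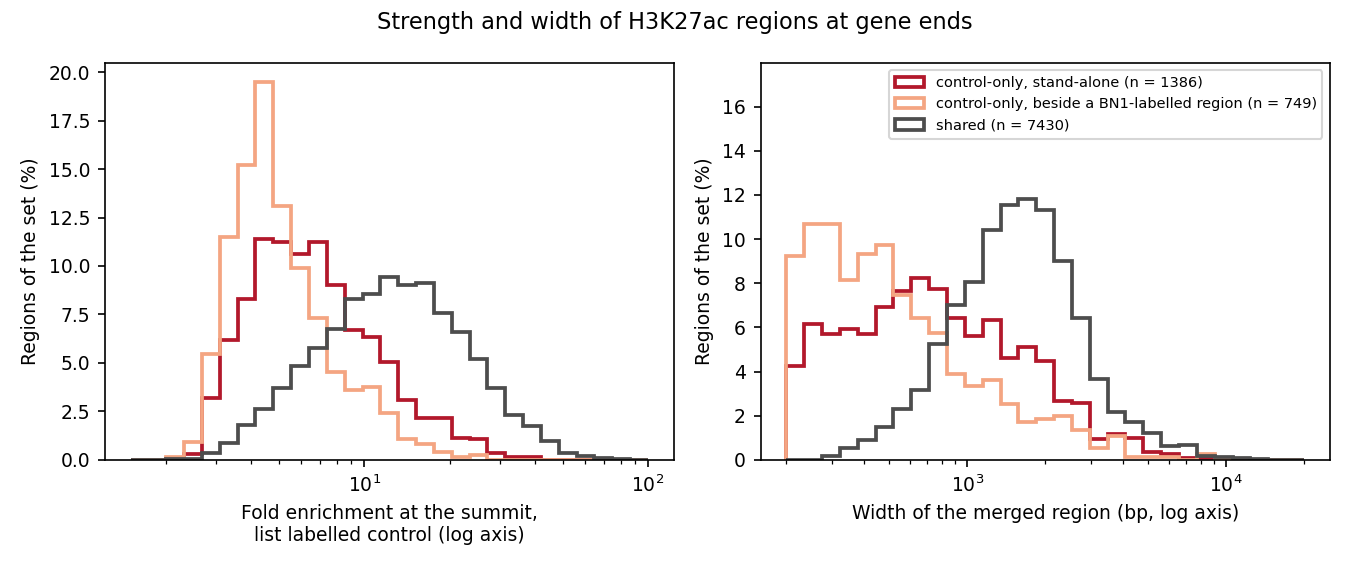
Left: fold enrichment at the summit in the control-labelled list. Right: width of the merged region. Both axes are logarithmic, the height is the percentage of each set per bin, and lines separate control-only regions at gene ends that stood alone (n = 1386), those beside a BN1-labelled region (n = 749) and shared regions (n = 7430). The stand-alone set (median fold enrichment 6.21) lies between the set beside a BN1-labelled region (4.64) and the shared set (12.6).

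At the limits of the rule, members and non-members had similar values. Just inside the 1000 bp window lay regions at Grid1 (1000 bp from the gene end), Fcrla (999 bp) and Cx3cr1 (998 bp), with fold enrichments of 3.85, 3.33 and 5.80. Just outside lay regions near Apoa2 and Rplp0 (both 1001 bp) and Lilrb4a (1002 bp), with 4.22, 4.64 and 5.41. On the other criterion, control-only regions at Srsf9, at Atp6v1g1 and between Hyal3 and Ifrd2 ended 3, 4 and 9 bp from a BN1-labelled peak, while the shared regions at Arl5c, Dnajc5 and between Pwp2 and Trappc10 counted as shared through 20, 22 and 39 bp.

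A gene can carry a control-only region next to acetylation that is present in both lists, and this divided the set. Of the 2135 regions, 1386 (64.9%, exact 95% interval 62.9 to 66.9) stood alone: none of the genes they touched had a BN1-labelled region at either end. The other 749 lay beside one. Stand-alone regions had a median width of 706 bp, a median fold enrichment of 6.21, a median pileup of 20 and a median distance of 35484.5 bp to the nearest BN1-labelled peak. For those beside a BN1-labelled region the same medians were 453 bp, 4.64, 14 and 1051 bp. The distance follows from the definition of the split. The other medians do not enter that definition, but they are not free of it. A region beside a BN1-labelled one was kept only where it did not overlap that neighbour. This bears on its width, fold enrichment and pileup, so these medians are a description only. Over all control-only regions at gene ends, a BN1-labelled peak lay within 1 kb of 18.4%, within 10 kb of 39.6% and within 100 kb of 85.2%.

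Position along the gene separated the same subsets. The strand of a gene was taken from the RefSeq promoter table, which holds 17492 of the 21887 protein-coding genes (79.9%). Among the 1671 control-only regions whose touched genes all had a strand there, 1316 (78.8%, 76.7 to 80.7) came within 1000 bp of a gene start and 355 touched far ends only. The share with a start was 89.6% of stand-alone regions, 58.7% of those beside a BN1-labelled region, 97.6% of shared regions and 78.5% of BN1-only ones. Regions that covered the annotated end itself, rather than lying next to it, made up 47.5% of stand-alone regions and 21.1% of those beside a BN1-labelled region. They made up 83.6% of shared regions and 34.2% of BN1-only ones. Whether these gaps would recur in a second pair of libraries cannot be seen from 1 library per group.

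At gene starts the median summit position of stand-alone regions was near that of shared ones, with a wider spread. Their summit lay a median of 212 bp inside the gene (quartiles 44.75 and 437.75, n = 984), and that of shared regions 206 bp inside (quartiles 104 and 379, n = 6019). The summit was within 500 bp of the start in 70.8% and 79.0%, and downstream of the start in 76.6% and 82.3%. Both sets were kept only within 1000 bp of a gene end, which bears on these distances. For control-only regions beside a BN1-labelled region the median summit lay at -373 bp, outside the gene (n = 361), and 39.6% were downstream. A control-only region cannot overlap the BN1-labelled region of its gene, so the split itself bears on where these regions could lie, here and in their shares at starts and on gene ends above, and those values are a description only.

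**Figure D2:**
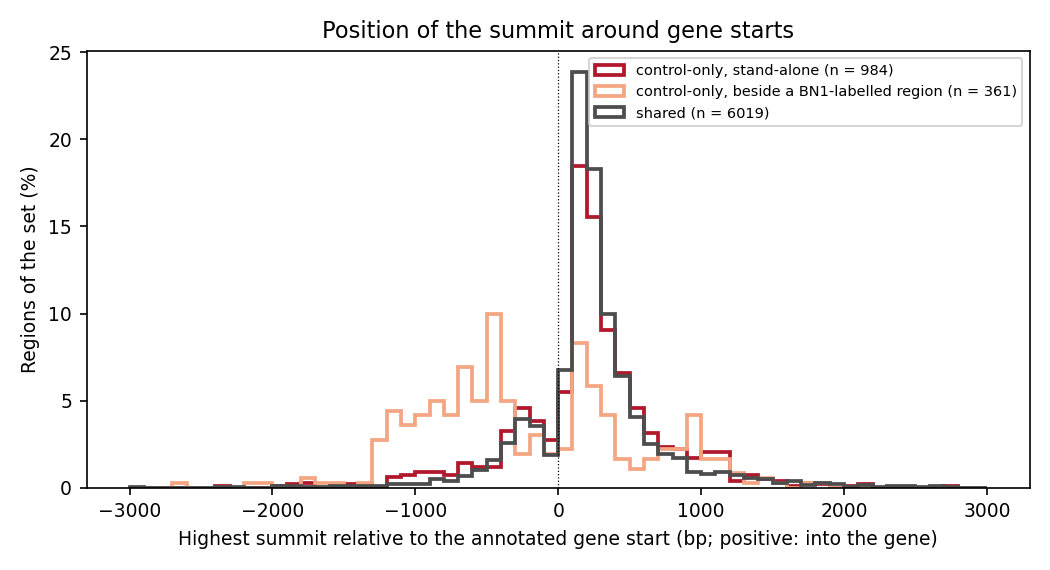
Distance of the highest summit from the annotated gene start in bp, positive into the gene, as the percentage of each set per 100 bp bin, within 3000 bp of the start. Stand-alone control-only regions (median 212 bp) and shared regions (206 bp) crowd just inside the gene, while control-only regions beside a BN1-labelled region (median -373 bp) are spread over the upstream flank and are sparse over the start itself.

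Promoters with a control-only region alone at the start were intermediate in CpG content. Of 1010 such promoters 55.5% (52.4 to 58.6) were CpG-rich. The share was 77.8% of the 6454 promoters with a shared region, 47.3% of the 480 with a BN1-only region and 21.4% of the 9238 with no region, and 45.8% over all 17492. Where a control-only region stood beside a BN1-labelled one at the same start it was 68.1% (n = 310). Strength differed little with composition: among stand-alone regions at a start, those at CpG-rich promoters had a median fold enrichment of 6.23 and a width of 723.5 bp (n = 532), and those at CpG-poor promoters 6.70 and 713 bp (n = 452).

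**Figure D3:**
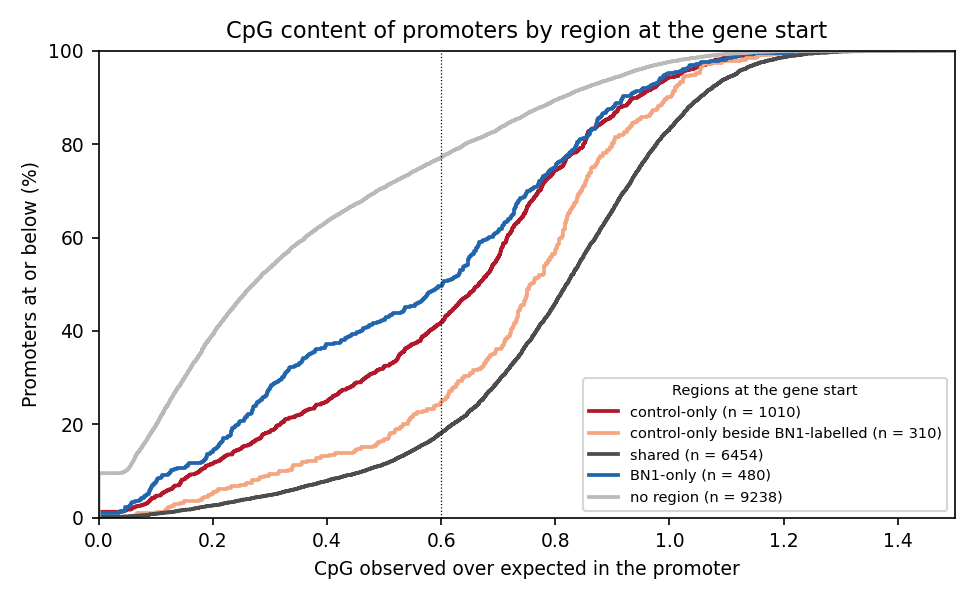
Cumulative percentage of promoters (300 bp) at or below a given ratio of observed to expected CpG, by the kind of region at the gene start; the dotted line marks 0.6. The curve for control-only starts lies between that of starts with a shared region, which are richest in CpG, and that of starts with no region.

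Of 16 short binding-site words searched on both strands, each without regard to overlap with the others, 3 were held by a share of control-only promoters whose 95% interval lay wholly above that of shared promoters: those of AP-1 and C/EBP, factors of stress responses and of myeloid cells, and a homeodomain word. The AP-1 word TGANTCA occurred in 7.62% (6.06 to 9.44) of control-only promoters, 3.72% of shared ones, 5.63% (3.74 to 8.08) of BN1-only ones and 7.03% of all promoters. The C/EBP word TTGCNNAA occurred in 11.3% (9.40 to 13.4), 7.42%, 11.0% (8.38 to 14.2) and 10.1%, and the control-only and BN1-only intervals overlapped. The homeodomain word TGATTNAT occurred in 2.08% (1.29 to 3.16), 0.84% (0.63 to 1.09), 1.46% (0.59 to 2.98) and 2.92%, and was commonest in promoters with no region, at 4.60%. All of these words are rarer in CpG-rich promoters. Within CpG-poor promoters the control-only and shared values were 13.1% and 6.78% for AP-1, 16.0% and 10.8% for C/EBP, and 3.56% and 1.89% for the homeodomain word, the last with overlapping intervals. Over all CpG-poor promoters they were 10.3%, 13.5% and 4.76%. A match is a string of letters and not a bound site.

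Among the other words, GGGCGG was held by 57.6% of control-only, 68.5% of shared and 46.3% of all promoters, and the E-box TCACGTG by 4.55%, 6.97% and 4.43%. The ETS word GAGGAAG stood at 14.0%, 13.0% and 13.5%, and the RUNX word TGTGGT at 11.6%, 11.9% and 15.1%. The word CATTTCC, included as a control word that resembles ETS and YY sites, stood at 7.03%, 7.10% and 7.17%.

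The strongest control-only regions at a gene start belonged to genes of varied function. Spag6, which encodes a protein of the ciliary axoneme, led with a fold enrichment of 38.3 over 1385 bp and a pileup of 98 fragments. Map4k3 followed with 30.5 over 2100 bp, and Src with 30.5 over 6020 bp. None of these genes had a BN1-labelled peak within 10 kb, where the control-labelled list had 2830, 3910 and 10279 bp. Next came Dglucy, a mitochondrial glutamate cyclase (27.4), Vat1, a membrane trafficking protein (27.1), Id2, an inhibitor of helix-loop-helix factors (27), Sgms1, a sphingomyelin synthase (26.7), Nrp1, a semaphorin and VEGF co-receptor (26.7), Trim47 (26.6) and Emp1 (26.2). Sgms1 and Nrp1 share a value because both had a pileup of 68 fragments on the commonest background.

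The genes around these starts differed in what the BN1-labelled list held. Nrp1, Trim47 and Emp1 had no BN1-labelled peak within 10 kb, against 8570, 3231 and 4602 bp in the control-labelled list. Sgms1 did, with 16107 bp against 33028 bp, although none of it lay within 1000 bp of an end of Sgms1. Id2 had 435 bp against 6531 bp, and it was the only one of the 10 whose ends were also acetylated in the BN1-labelled list.

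By width the order was different. The widest region, 8638 bp, covered the start of Rab11fip5, an effector of recycling endosomes, at a fold enrichment of 10.3. A region of 8049 bp lay at Plxna1, a semaphorin receptor subunit, and the predicted gene Gm40415, with a fold enrichment of 26.6. Kcnn4, a calcium-activated potassium channel, had 7749 bp at its far end, Cdk18, a cyclin-dependent kinase, 7476 bp at its start, and Pgpep1, a peptidase, 6542 bp at its far end. Plxna1, Cdk18 and Pgpep1 had no BN1-labelled peak within 10 kb, while Rab11fip5 had 302 bp and Kcnn4 6530 bp.

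Regions that touched far ends only reached lower fold enrichments. The strongest were at Pik3r3, a regulatory subunit of PI3 kinase (22.0), Anxa5, annexin A5 (20.1), Pgpep1 (20.1), Lilr4b, an inhibitory immune receptor (19.3) and Mrm1, a methyltransferase of mitochondrial ribosomal RNA (19.3). All but Pgpep1 also had a BN1-labelled region at an end. Among genes whose strand the promoter table does not give, a class added after values were seen, Edil3, an extracellular matrix protein, reached 36.9, Cd14 33.2, Fndc7 32.5 and Zfp532 30.7.

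In gene terms, 2093 of 21887 protein-coding genes (9.56%) had a control-only region at an end, and 1332 (6.09%) had end regions in the control-labelled list only, against 664 (3.03%) in the BN1-labelled list only. With lists of equal length these gene counts were 1001 and 1035, and with the 10000 strongest peaks per list 911 and 1624. These percentages are the background for the gene lists that follow, and they are fixed by the same contrast that chose the regions. They are taken over all genes, of which 51.8% had no end region in either list. Lists differed in that share, with 2 of 34 lysosomal, 4 of 36 Toll-like and 22 of 40 Hox and TALE genes in neither list. A list share above 9.56% is therefore not by itself an excess over genes that had any end region. Of the genes with a control-only region 87.1% had 1, and 31 genes had 3 or more. The 28 lists hold 683 genes of the table and were drawn up with earlier results of these data known, so their counts are a description. Over all 2093 genes the median fold enrichment of a gene's strongest control-only region was 5.80.

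Of the 28 lists, that of monocyte and macrophage genes had the largest share with a control-only region: 20 of 30 listed genes had one, 16 had end regions in the control-labelled list only, 7 in both, 1 in the BN1-labelled list only and 6 in neither. The median over the 20 of the strongest region was 8.81. Cd14, the co-receptor for bacterial lipopolysaccharide, had a region of 4122 bp with a fold enrichment of 33.2 and a pileup of 85, and 9481 bp of acetylated length within 10 kb in the control-labelled list against 1676 bp in the BN1-labelled list. Gpnmb had a region of 4718 bp at its start with 18.8 and a pileup of 110, and Trem2 one of 3856 bp with 18.5 and 54. Neither Gpnmb nor Trem2 had a BN1-labelled peak within 10 kb, where the control-labelled list had 7926 and 6937 bp.

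Several other macrophage genes, named after their values were seen, carried more than 1 region. The adjacent genes C1qa, C1qb and C1qc, which encode the chains of complement C1q, carried 4 regions with fold enrichments from 3.65 to 7.95 and no BN1-labelled peak within 10 kb. Msr1, a scavenger receptor, carried 4, the most of any gene, at 12, 9.66, 7.34 and 3.87. Spp1, osteopontin, carried 3 at 9.66, 8.09 and 4.38, and Clec5a, a myeloid lectin receptor, 3 at 24.4, 13.6 and 10.1. At Lyz2 (lysozyme) and Mpeg1 (perforin-2), where both lists had end regions, the control-only regions were small, at 430 and 232 bp.

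Marker genes of several blood cell types also differed in acetylated length between the libraries. Of 9 monocyte and macrophage markers, 8 had a control-only end region, and their summed acetylated length was 44538 bp in the control-labelled list and 6177 bp in the BN1-labelled list. For 7 neutrophil markers the sums were 3081 and 36524 bp, no marker had a control-only end region, and S100a9, Ngp, Ltf and Cxcr2 had no region in the control-labelled list. For 7 B lymphoid markers they were 2948 and 31293 bp, with none having a control-only end region and Cd79b, Pax5 and Ebf1 among those at 0 in the control-labelled list. The 4 mast cell and basophil markers were at 0 in both lists. The remaining sets differed less, and in both directions. In the same order of lists, 7 erythroid markers had 5742 and 7132 bp and 5 T and NK markers 1907 and 5548 bp. For 5 megakaryocyte markers the sums were 5726 and 1834 bp, and for 5 of stroma and endothelium 4598 and 1514 bp. Where the windows of neighbouring genes overlap, a sum counts the same bases more than once. Pf4 and Ppbp each gave 2651 bp in 2 peaks of the control-labelled list, so the megakaryocyte sum of 5726 bp is not a length of distinct bases. The 4 markers of the labelled cells (Ptprc, Kit, Cd34 and Flt3) had 9576 and 6945 bp. In bulk chromatin a smaller share of cells of a type and less acetylation per cell cannot be told apart, and the part of cell composition in the control-only regions was not tested.

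Among Hox genes and their TALE cofactors, homeodomain factors of patterning and of blood progenitors, 13 of 40 had a control-only region, 12 had end regions in the control-labelled list only, 5 in both, 1 in the BN1-labelled list only and 22 in neither. The 13 genes shared 12 regions, so they are not separate observations. A region of 3979 bp between Hoxb7 and Hoxb8 had a fold enrichment of 18.2 and a pileup of 53. In the Hoxa cluster Hoxa3 had 18 at its start, Hoxa7 11.6 and Hoxa4 5.07. Hoxb6 had 2 weaker regions, at 6.18 and 4.56, and Hoxc6 1 at 3.13.

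The cofactors belonged to the same group. Meis1 had a region of 2290 bp at its start with a fold enrichment of 7.75 and no BN1-labelled peak within 10 kb, against 2737 bp in the control-labelled list. Meis3 had 13.0 and Meis2 7.95. The median over the 13 genes was 13.0. Hoxa9 itself had no end region in either list.

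Genes of stem and progenitor cells were fewer, with 4 of 22 holding a control-only region. Cd34, a sialomucin of progenitors, had 970 bp at its far end with a fold enrichment of 13.9, and Procr, the endothelial protein C receptor, 896 bp at its start with 10.2. Neither had a BN1-labelled peak within 10 kb. Ly6a, the gene of Sca-1, carried 3 regions at 6.89, 5.34 and 4.88. Of 28 genes tied to leukaemic self-renewal, 5 had a control-only region: Id2, Ccnd1 (cyclin D1; 4009 bp, 13.2), Igf2bp3 (2755 bp, 11.2), Evi2a (258 bp, 4.64) and Ccnd2 (cyclin D2; 2.81).

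Among lysosomal genes 8 of 34 had a control-only region and 24 had end regions in both lists. Naglu, a heparan sulphate hydrolase, had 13.3 and 7.95 in 2 regions, Ctss, cathepsin S, 10.8, Tfec, an MiT/TFE transcription factor, 9.77, and Lgmn, legumain, 9.14. Mitf, of the same factor family and listed with mast cell genes, had 9.0 at its start and 20016 bp of acetylated length in the control-labelled list against 0 bp. In macrophage lipid handling 9 of 29 genes had one, 8 of them with end regions in the control-labelled list only. Besides Trem2 these included Lrp1, an endocytic lipoprotein receptor (5962 bp, 12.8, and 29568 bp of acetylated length against 335 bp), Rxra (10.4) and Pparg (10.4), nuclear receptors that act as a pair.

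**Figure D4:**
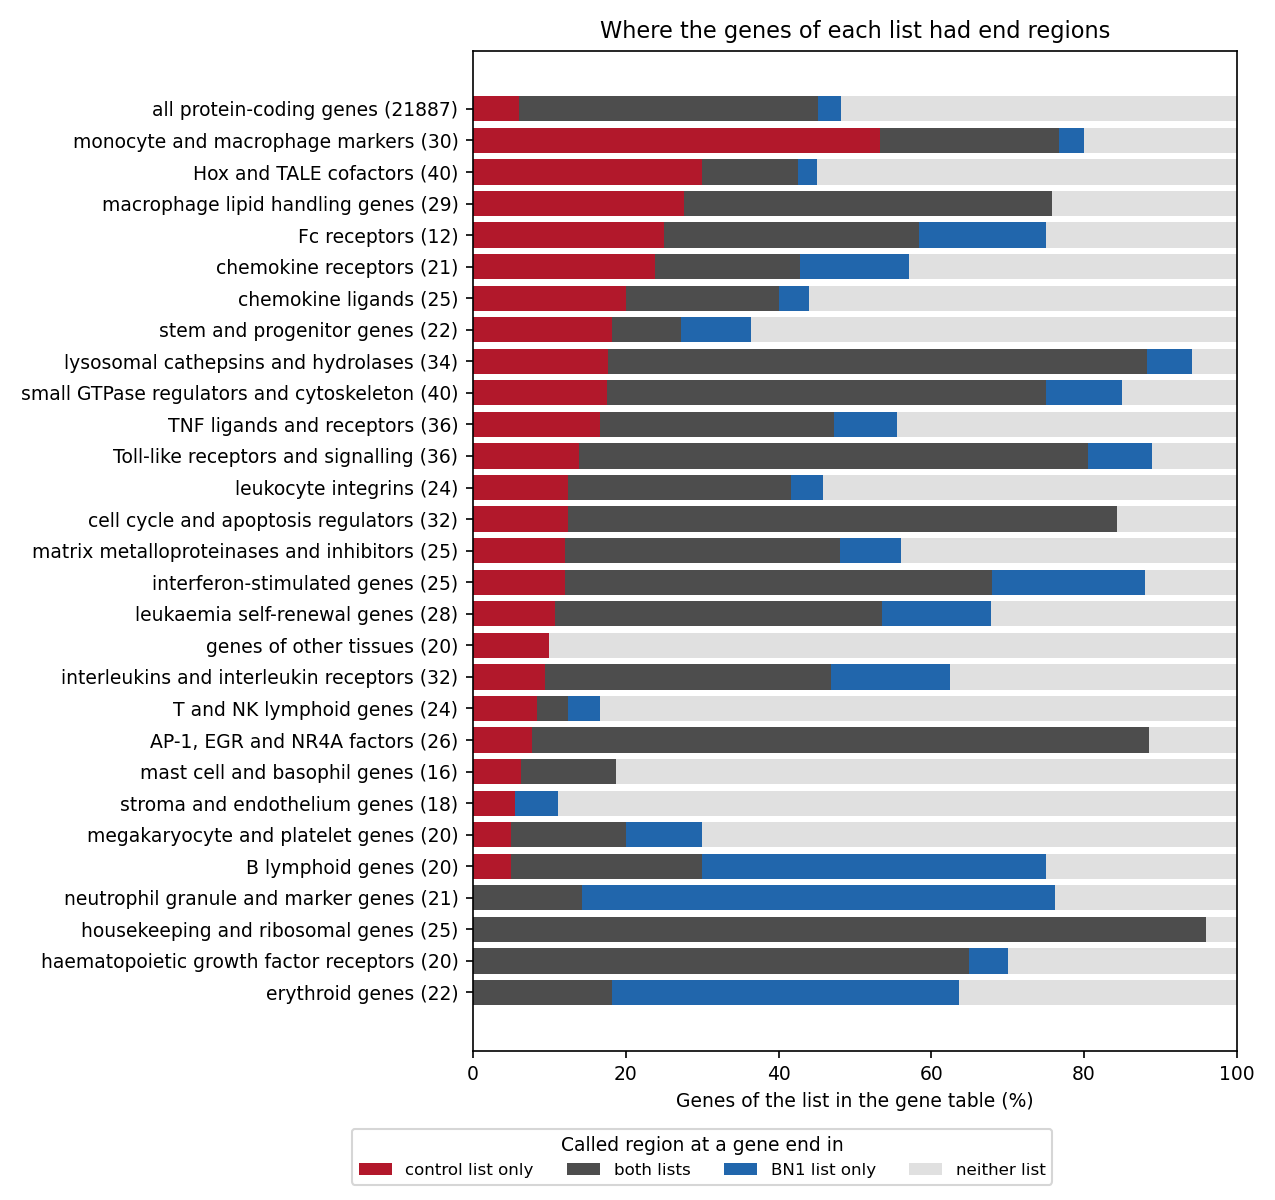
Percentage of the genes of each list with called end regions in the control-labelled list only, in both, in the BN1-labelled list only or in neither, with the number of genes in brackets; the top bar shows all 21887 protein-coding genes. Monocyte and macrophage markers have the longest control-only part (16 of 30 genes) and housekeeping genes none (0 of 25), against 6.09% of all genes.

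Signalling genes held them at some members of each family. Of 25 chemokine ligand genes 7 did, with Ccl9 at 13.1, Pf4 at 12.4 and Ccl12 at 11.6, and of 21 chemokine receptor genes 6 did, with Ccr10 at 10.1, Cxcr3 at 6.18 and Cx3cr1, the fractalkine receptor, at 5.80. Of 36 genes of TNF ligands and receptors 8 did. Tnfsf9, the ligand of 4-1BB, carried 3 regions at 15.8, 12.8 and 8.5 and had 12865 bp of acetylated length against 0 bp, and Tnfrsf11a, the receptor RANK of osteoclast precursors, had 13.4 and 6153 bp against 0 bp. Of 36 Toll-like receptor and signalling genes 8 did, among them Cd14, Irak3 (10.5), Tnip1 (10.1) and Nod2 (9.25). Of 12 Fc receptor genes 5 did, at low values led by Fcgr1 at 5.06.

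Adhesion and cytoskeletal genes were similar. Of 24 integrin genes 4 had a control-only region: Itgb5 (18.9), Itgam, which encodes CD11b (11.5), Itgax, which encodes CD11c (7.34), and Itga8 (7.30). Of 40 regulators of small GTPases and the cytoskeleton 8 had one, led by Dock1, an exchange factor for Rac (16.4), Arhgap18 (15.8), Rhoc (14.5) and Rras (11.5). Of 32 regulators of the cell cycle and apoptosis 7 did, with Cdkn1a, the inhibitor p21, at 14.4. Bcl2a1a, a survival gene, stood at 24.7, but it has near-identical copies, so its reads cannot be placed with certainty.

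Housekeeping and ribosomal genes stood high by one measure and low by another. Of 25, 9 (36%) had a control-only region, a larger share than the 32.5% of Hox and TALE genes. However, 24 had end regions in both lists and none in the control-labelled list only. Every one of the 9 was thus a gene with a BN1-labelled region, and the median of their strongest control-only region was 4.59. B2m, a chain of MHC class I, had 2 such regions at its far end, of 356 and 288 bp, with fold enrichments of 6.57 and 3.54. No neutrophil gene of 21 had a control-only region, 13 having end regions in the BN1-labelled list only. Among lists of other cell types, 1 of 22 erythroid, 2 of 20 B lymphoid, 2 of 24 T and NK, 1 of 20 megakaryocyte and 1 of 18 stroma and endothelium genes had one. The share of all genes was 9.56%, and the B lymphoid (10%) and T and NK (8.33%) shares lay near it. In the same order the medians of the strongest region were 3.85, 5.72, 12.6, 12.4 and 11.6. Of 20 genes of other tissues 2 did, Vil1 and Syn1.

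**Figure D5:**
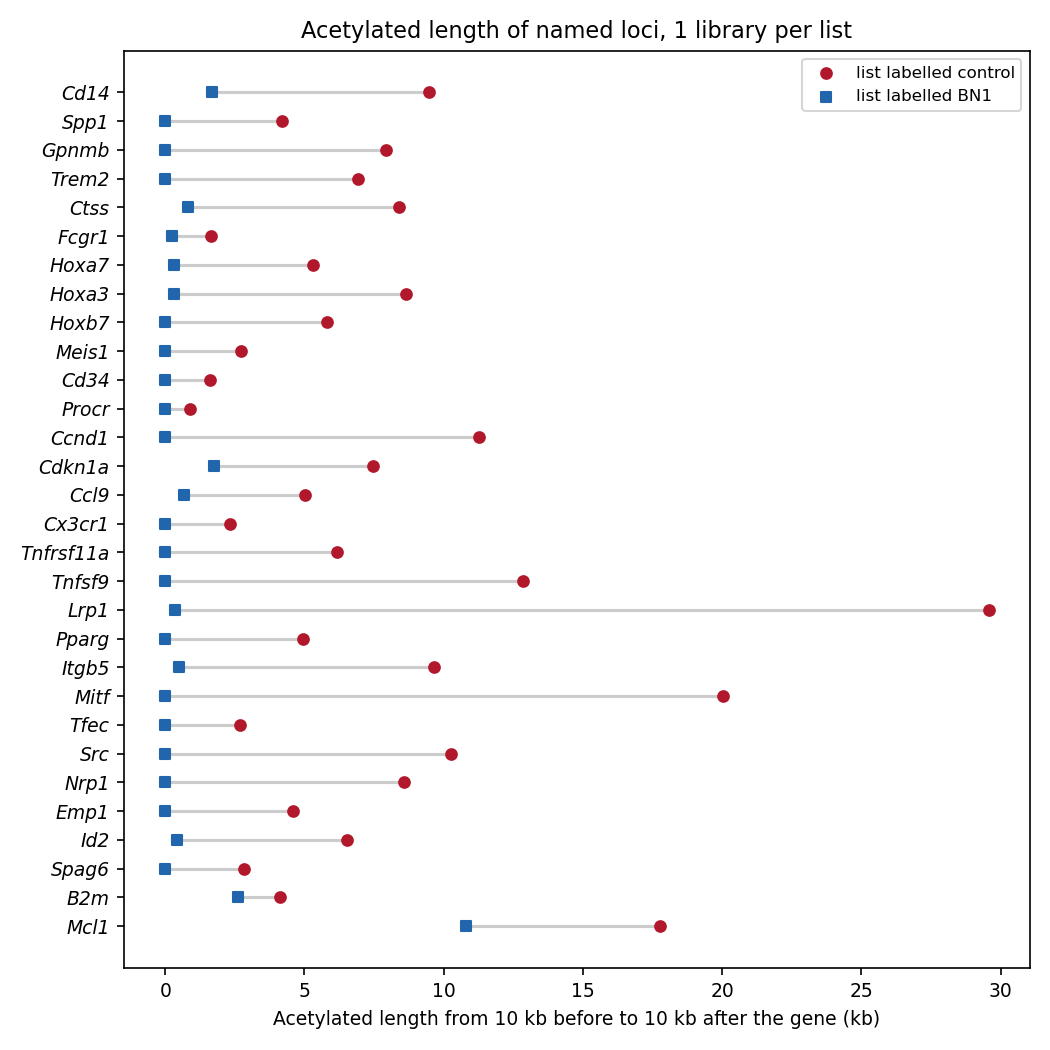
Acetylated length in kb from 10 kb before to 10 kb after each gene, in the control-labelled list (circles) and the BN1-labelled list (squares), for 30 genes with a control-only end region picked after their values were seen to span the lists. In all 30 the circle lies to the right of the square, which the choice of genes favours; B2m and Mcl1, which had end regions in both lists, have squares at 2629 and 10816 bp.

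Control-only regions were spread over the genome, with some runs of neighbouring genes. Among numbered chromosomes the share of genes with one ran from 5.89% on chromosome 16 to 13.0% on chromosome 11, and was 6.31% on X. Genes with end regions in the control-labelled list only had a median length of 20.5 kb, near the 21.5 kb of genes with end regions in both lists, and longer than the 12.4 kb of genes with none. The longest run of consecutive genes, each with end regions in the control-labelled list only, held 6 genes and 5 regions, from Prss43 to Als2cl. Further runs held the C1q genes, Hoxb8 to Hoxb6, and the acute-phase genes Orm1, Orm3 and Orm2. Another held Hspa1b, Hspa1a and Hspa1l, of which Hspa1a and Hspa1b are near-identical copies, and another 5 genes around the zinc finger gene Zfp973; how reads were placed among copies was not tested.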

How the data were processed

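H3K27ac was measured in 2 ChIP libraries, 1 per group; the 2 input libraries were not analysed here. The submitters' processing notes list MACS3 3.0.1, Bowtie2 2.5.4, deepTools 3.5.1 and Picard 3.2.0 and the mm10 (GRCm38) build, without role or order. Thresholds, input subtraction and pooling are not given in those sources. The deposited lists give, for each peak, the fold enrichment at the summit as a linear ratio, the −log10 p, the −log10 q and a score; the deposited score stayed unused. Deposited −log10 q values started at 1.32 (control-labelled) and 1.30 (BN1-labelled). These lists held 28343 and 19148 peaks covering 31.0 and 19.1 Mb, of which 28 and 8 peaks on unplaced sequences were left out. Total read depth is unknown; pileups were derived from the deposited fold and p-value.

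Groups follow the sample titles. Peaks of both lists were merged with bedtools 2.31.1 at a distance of 0 bp. Gene ends came from RefSeq GRCm38.p6, strand and promoters from its promoter table, in which 1674 of the 2093 genes with a control-only region were found. Exact (Clopper-Pearson) 95% intervals on shares and Poisson intervals on pileups cover counting error only. With 1 library per group no test was run. Acetylated length is the number of bp under peaks from 10 kb before to 10 kb after a gene. The code was tested on simulated peaks.

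The members and gene lists were chosen with earlier results of these data known. Genes were named by rule: the 10 strongest at a start, the 5 widest, the 5 strongest at far ends, up to 4 per list by fold enrichment, 3 on each side of each limit, and Kit, Ptprc, Cd34, Hoxa9 and Meis1; others were named after their values were seen, and a few genes that the rule names are not reported here. Alternatives covered −log10 q minimums of 5 and 10, equal list lengths, the top 10000 peaks, windows of 500 and 2500 bp, merging within 1000 bp and numbered chromosomes with X; those of stand-alone regions and of any RefSeq start were chosen after seeing the data. Python 3.11.15, numpy 2.4.6, pandas 2.3.3, scipy 1.17.1 and matplotlib 3.10.9 were used.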

Additional observations from a re-analysis of the deposited data

How the results depend on the processing

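The cause of the changes listed here was not tested. The number of control-only regions at gene ends was 2135, and it stayed within 1.5 times that value at a −log10 q minimum of 5 (1744) or 10 (1501), with a 500 bp window (1669) and with peaks merged within 1000 bp (1482). It was 1294 with lists of equal length, 952 with the top 10000 peaks of each list, 3529 with a 2500 bp window and 1386 for stand-alone regions. The genes with such a region numbered 2093, and 1337, 1044, 3244 and 1284 under those last 4 settings. The share at a gene start (78.8%) was 83.8% and 87.8% at a −log10 q minimum of 5 and 10, 82.8% with equal lengths, 88.7% with the top 10000, 81.5% with the 500 bp window and 89.6% for stand-alone regions. It was 58.8% when any RefSeq start of the promoter table counted, over all regions, including those of genes that table lacks. In the same order, with the 2500 bp window and merging within 1000 bp after the 500 bp window, median width (605 bp) was 841.5, 1168, 902.5, 1572.5, 672, 530, 900.5 and 706 bp, and median fold enrichment (5.60) was 6.96, 9.25, 7.36, 12, 5.95, 5.19, 6.53 and 6.21. The CpG-rich share of regions at gene starts (57.2%) was 54.3% with merging within 1000 bp and 54.1% for stand-alone regions. Leaving out chromosome Y changed none of these 6 values.

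Among gene lists, monocyte and macrophage genes with end regions in the control-labelled list only numbered 16, and from 11 to 16 over the 2 minimums, equal lengths and the top 10000; Hox and TALE genes numbered 12, and from 9 to 11. Housekeeping genes numbered 0 throughout these settings. Over all genes this share was 6.09% with all peaks and 6.11% and 6.20% at the minimums of 5 and 10. It was 4.57% with equal lengths and 4.16% with the top 10000, so list counts fell there beside a fall over all genes. Other lists, large and small, moved too. TNF ligands and receptors numbered 6 and from 2 to 4, Fc receptors 3 and from 0 to 1, and chemokine receptors 5 and from 2 to 4. Interferon-stimulated genes numbered 3 and from 0 to 2, and interleukins and their receptors 3 and from 1 to 3. Stem and progenitor genes numbered 4 and from 2 to 4, and growth factor receptors 0 and from 0 to 5. Chemokine ligands numbered 5 and from 5 to 8, AP-1, EGR and NR4A factors 2 and from 2 to 5, and small GTPase regulators 7 and from 7 to 11. No paired analysis was possible because each group had 1 ChIP library and no test was run. The pileup interval lay wholly above 8 in 63.2% of the control-only regions at gene ends. That level was taken at the commonest BN1-labelled background only, and the part of depth was not tested.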
